A study of Mus musculus with 18 samples.

Results

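The comparison described here set splenic B cells lacking Zbtb24 against control B cells after 24 h of culture with lipopolysaccharide (LPS, the bacterial ligand of TLR4, which drives B cells to grow and divide). It covered the 9711 genes whose mean level over the 6 libraries of this time point was at least 1 FPKM, out of 16545 genes in the table (58.7%). FPKM express a level as sequenced fragments, scaled to the length of the transcript and to the size of the library. Genes just outside this limit were Tspan6 at 0.997, Gpr157 at 0.998 and Usp17la at 0.998 FPKM, and those just inside were H2bc14 at 1.0, Rap2a at 1.0 and Gk5 at 1.002 FPKM. The series held 18 RNA-seq libraries, from B cells of 3 control mice (labelled CON) and 3 mice with B cell specific deletion of Zbtb24 (labelled B-CKO), each sampled at 0, 24 and 48 h of LPS. The 6 libraries used here were the 24 h samples, 1 from each mouse, named by genotype and the mouse number of the label.

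In the B-CKO mice both copies of Zbtb24 carried loxP sites around exon 2, which holds the start of translation, and Cre recombinase was driven by a B cell promoter, so that deletion began early in B cell development. The study's methods describe the control animals as carriers of 1 Cre allele on the same C57BL/6 background. The methods add that this held unless stated otherwise. The sample labels give only CON, so they do not show whether these control mice carried Cre. A part of Cre carriage in the differences between the groups was not tested. B cells were purified from spleen by a surface marker, and the age and sex of these mice were not given in the sources used here. The dose of LPS was not given for these libraries either.

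ZBTB24 is a zinc finger protein of the BTB family, and mutations of its gene cause ICF syndrome, an inherited immunodeficiency with centromere instability, facial anomalies and low serum antibodies. The other genes mutated in ICF syndrome encode the DNA methyltransferase DNMT3B, the remodelling ATPase HELLS and its partner CDCA7, whose gene is a known direct target of ZBTB24. In LPS-stimulated B cells the first day is spent on growth and entry into the cell cycle, while genes of the resting state are turned down.

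Libraries were alike in composition. FPKM sums ranged from 515196 to 526457, and relative depth, read from the steps between low values, from 0.972 to 1.02 of the mean. The absolute depth is unknown. Pearson's r between libraries, over member genes on the log2 scale, was 0.9972 to 0.9977 within a genotype and 0.9954 to 0.9972 between genotypes, and the first principal component (42.0% of the variance) set the control libraries on one side and the B-CKO libraries on the other. Of 10 B cell markers all 10 were members, with a summed level of 2567 to 2758 FPKM in controls and 2232 to 2323 FPKM in B-CKO cells. All 10 differences were below 0 (median -0.14), and 3 were called lower, Cd22 and Cd79a among them. T cell markers summed to 14.3 to 16.8 FPKM in controls and 11.5 to 13.1 FPKM in B-CKO cells, most of it Lck (12 ± 1.15 FPKM in controls against 8.9 ± 0.58 FPKM in B-CKO cells, called lower), myeloid markers to 7.10 to 9.02 and 6.71 to 7.28 FPKM, erythroid markers to 8.36 to 11.5 and 7.62 to 12.9 FPKM, and NK cell markers to 0.47 to 0.65 and 0.50 to 0.75 FPKM. Of the erythroid and NK cell markers 2 each were at 0 in all 6 libraries. The part of these other cells in the results was not tested. In bulk RNA, fewer cells with a transcript and less transcript per cell cannot be told apart.

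A few genes differed strongly and many shifted a little. At an adjusted p under 0.05 (limma with a variance trend on log2(FPKM + 1), Benjamini-Hochberg over the 9711 genes), 388 genes were called, which is 4.0% of those tested. Of these, 92 were higher in B-CKO cells (0.947%) and 296 lower (3.05%). Only 23 of the 388 differed by 0.5 or more on the log2 scale, 365 (94.1%) by less than 0.5 and 183 (47.2%) by less than 0.25, the smallest by 0.13. The median difference was 0.20 among the genes called higher and -0.27 among those called lower. In the plot of difference against level, the called genes form a band close to the axis with a handful of points far below it.

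**Figure D1:**
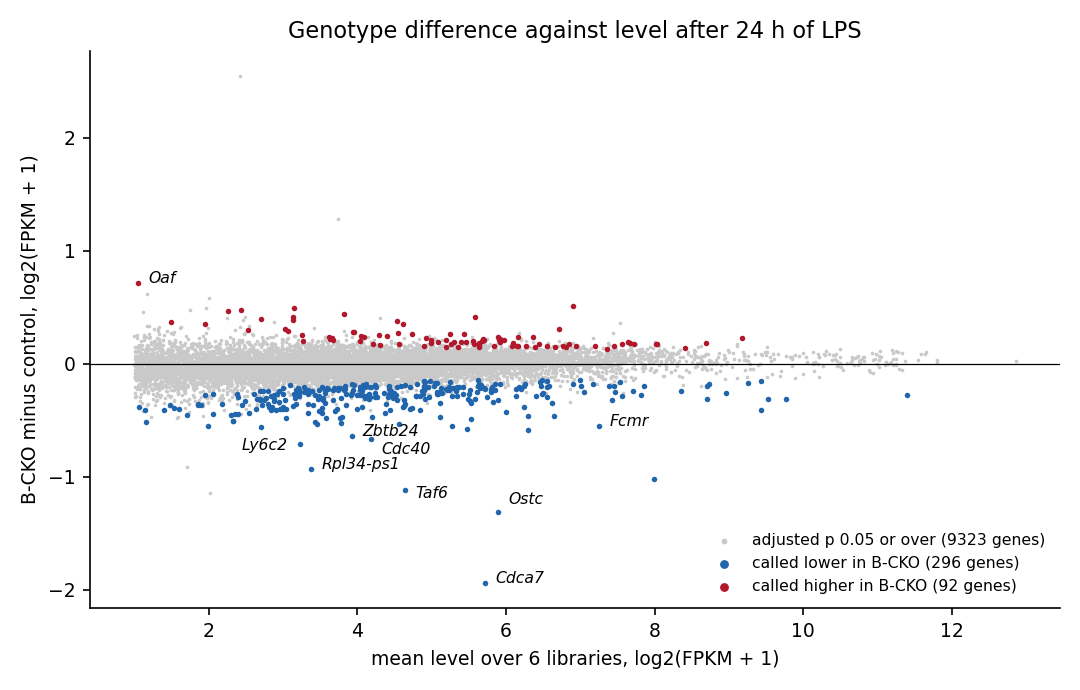
Difference between B-CKO and control cells (log2(FPKM + 1), 3 libraries each) against the mean level over the 6 libraries for the 9711 genes; coloured points are the 296 genes called lower and the 92 called higher. Cdca7, Ostc and Taf6 lie at -1.94, -1.31 and -1.12, while 365 of the 388 called genes lie within 0.5 of 0.

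The rest of the distribution was narrow. Of the 9711 genes 6797 (70.0%) differed by less than 0.1 and none of these was called. In the next steps 183 of 2519 genes between 0.1 and 0.25 were called, 182 of 365 between 0.25 and 0.5, 19 of 23 between 0.5 and 1 and 4 of 7 at 1 or more. The median difference over all members was -0.0063, with the 5th and 95th percentiles at -0.21 and 0.15 and a median standard error of 0.051. For 9584 genes (98.7%) the 95% confidence interval of the difference stayed within 1.5-fold in either direction, and for 8590 (88.5%) within 1.25-fold. At an unadjusted p under 0.05 stood 2201 genes (22.7%), of which 903 were higher (9.30%) and 1298 lower (13.4%). In 2693 genes (27.7%) the 3 B-CKO libraries did not overlap the 3 control libraries, 1147 with all B-CKO libraries above (11.8%) and 1546 with all below (15.9%).

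Direction went with level. With the members ranked by level and divided into 5 groups of equal size, 25 genes were called lower and 5 higher in the lowest group (up to 4.63 FPKM), which had a median difference of -0.032. In the highest group (from 45.9 FPKM) 72 were lower and 45 higher, with a median of 0.028. The share called rose from 1.54% in the lowest group through 3.71, 4.12 and 4.58% to 6.02% in the highest, while the median standard error fell from 0.079 to 0.038. Of genes simulated with a 1.15-fold change at these levels and spreads 36.2% were recovered, against 72% at 1.25-fold, 92.9% at 1.5-fold and 97.2% at 2-fold. Many shifts of the smallest size would thus be missed. The simulation drew each gene independently, without variation shared by the genes of a library.

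The number of calls rested on single libraries and on the genes fitted together. Fitted over all 15104 genes above 0 in any of the 6 libraries, 15 genes were called (0.0993%), 13 lower and 2 higher. Cdca7, Ostc, Taf6, Rnf187, Cdc40, Fcmr, Rnase6, Pycard, Il21r, Srpk3, Dusp2 and Mcl1 were among the lower ones, and Oaf and Dscc1 were higher. Without control library 1 the count over members was 43 and without B-CKO library 2 it was 58, against 117 to 469 without any of the other 4. Leaving out each library in turn kept 38 genes called every time. Counts within gene lists carry the same limit.

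Zbtb24 (chr10:41450358-41465582, GRCm38.p6) stood at 18.3, 18.8 and 15.7 FPKM in the 3 control libraries and 11.7, 10.4 and 10.6 FPKM in the 3 B-CKO libraries. All 3 B-CKO libraries lay below the controls, a difference (B-CKO minus control) of -0.64 ± 0.068 (SE) on the log2 scale (limma, adjusted p = 0.00278). At 0 h the same difference was -1.78 and at 48 h -0.50. The FPKM of the whole gene counts exons other than the deleted exon 2 as well, so the value is not the amount of intact transcript.

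Cdca7 fell the most of all called genes. The gene (chr2:72476187-72486892) encodes the zinc finger partner of HELLS, and its levels were 80.02, 85.5 and 82.2 FPKM in the 3 control libraries and 19.3, 22.1 and 21.2 FPKM in the 3 B-CKO libraries, a difference of -1.94 ± 0.05 (adjusted p = 4.09e-08). No B-CKO library came near the controls. Ostc (chr3:130695917-130709444), a subunit of the oligosaccharyltransferase that attaches glycans to proteins entering the ER, was at 86.7, 81.5 and 83.4 FPKM in the 3 control libraries and 32.2, 34.1 and 33.1 FPKM in the 3 B-CKO libraries. Its difference was -1.31 ± 0.038 (adjusted p = 5.48e-08), with the groups well apart. Taf6 (chr5:138178617-138187451), a subunit of the general transcription factor TFIID, stood at 32.8, 33 and 34 FPKM in the 3 control libraries and 15, 14.1 and 15.3 FPKM in the 3 B-CKO libraries, at a difference of -1.12 ± 0.041 (adjusted p = 4.53e-07). Cdc40 (chr10:40831621-40883143), a splicing factor of the second catalytic step, was at 22.3, 21.6 and 19.7 FPKM in the 3 control libraries and 13.3, 12.9 and 12.7 FPKM in the 3 B-CKO libraries. The difference was -0.67 ± 0.05 (adjusted p = 2.11e-04). Cdc40 lies 619 kb from Zbtb24. Among the 9 other members within 1 Mb of Zbtb24 only Cdc40 was called (11.1%, beside 4.0% of all members). Whether its position has a part in the difference was not tested. Rnf187, a RING finger ubiquitin ligase gene taken up here after its values were seen, was at 115, 116 and 113 FPKM in the 3 control libraries and 84.9, 82 and 82.3 FPKM in the 3 B-CKO libraries, at a difference of -0.46 ± 0.032 (adjusted p = 9.85e-05). These 5 genes and the IgM Fc receptor gene Fcmr were among the 7 genes called here and under each of the 13 other settings tried.

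The promoters of 4 of these genes hold the letters CAGGACCT, the core of a sequence that ZBTB24 is known to bind. Shown are the 200 bases before the start used in the gene's promoter entry (RefSeq, GRCm38.p6), 5′ to 3′ in the direction of the gene. CAGGACCT or its reverse complement is in capitals. For Cdca7 and Taf6 this start lies inside the gene span given above. The whole Taf6 window, with both of its matches, thus lies within that span. Ostc is named only. The windows are chr2:72476019-72476218, plus strand, for Cdca7, chr5:138187227-138187426, minus strand, for Taf6, chr10:40883144-40883343, minus strand, for Cdc40, and chr11:58938907-58939106, minus strand, for Rnf187.
Cdca7: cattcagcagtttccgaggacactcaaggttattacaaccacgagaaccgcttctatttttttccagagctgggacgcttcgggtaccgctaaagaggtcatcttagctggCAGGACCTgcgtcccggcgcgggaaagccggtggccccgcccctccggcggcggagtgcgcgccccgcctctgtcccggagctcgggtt
Taf6: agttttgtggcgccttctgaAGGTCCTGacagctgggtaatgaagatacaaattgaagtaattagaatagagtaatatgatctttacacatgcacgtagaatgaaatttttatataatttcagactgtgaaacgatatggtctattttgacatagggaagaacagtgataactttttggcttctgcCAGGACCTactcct
Cdc40: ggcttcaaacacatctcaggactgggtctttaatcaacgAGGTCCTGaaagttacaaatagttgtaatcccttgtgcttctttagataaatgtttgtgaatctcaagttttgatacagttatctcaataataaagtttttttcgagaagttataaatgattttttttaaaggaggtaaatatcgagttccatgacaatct
Rnf187: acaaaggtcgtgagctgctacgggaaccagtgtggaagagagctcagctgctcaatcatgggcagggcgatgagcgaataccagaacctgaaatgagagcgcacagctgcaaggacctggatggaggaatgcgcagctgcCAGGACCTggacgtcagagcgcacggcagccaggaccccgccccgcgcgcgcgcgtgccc

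Counted from the start of the promoter entry, the match begins 89 bases before it in Cdca7 and 60 bases before it in Rnf187. Taf6 holds the letters at 14 bases before its start and again, on the other strand, at 180 bases before, and Cdc40 holds them at 161 bases before its start and once more just after it, at positions 3 to 10. In the 300-base windows of the table (250 bases before to 50 after a start, both strands) CAGGACCT was present in 653 of 32851 promoters (1.99%), and in 154 of the 7928 members with a promoter entry (1.94%). Among genes called lower it was present in 8 of 233 (3.43%): the 4 shown, Cnpy4, H2-DMb2, Tmem63a and Ly86. Cnpy4 (10.8 ± 0.18 FPKM in controls against 8.24 ± 0.92 FPKM in B-CKO cells) runs away from Taf6 on the other strand, and its match is the same site as the distal match of Taf6, chr5:138187399-138187406. Among genes called higher 1 of 79 held it (1.27%), Oaf, the gene with the largest rise. A match says only that the letters are there.

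**Figure D2:**
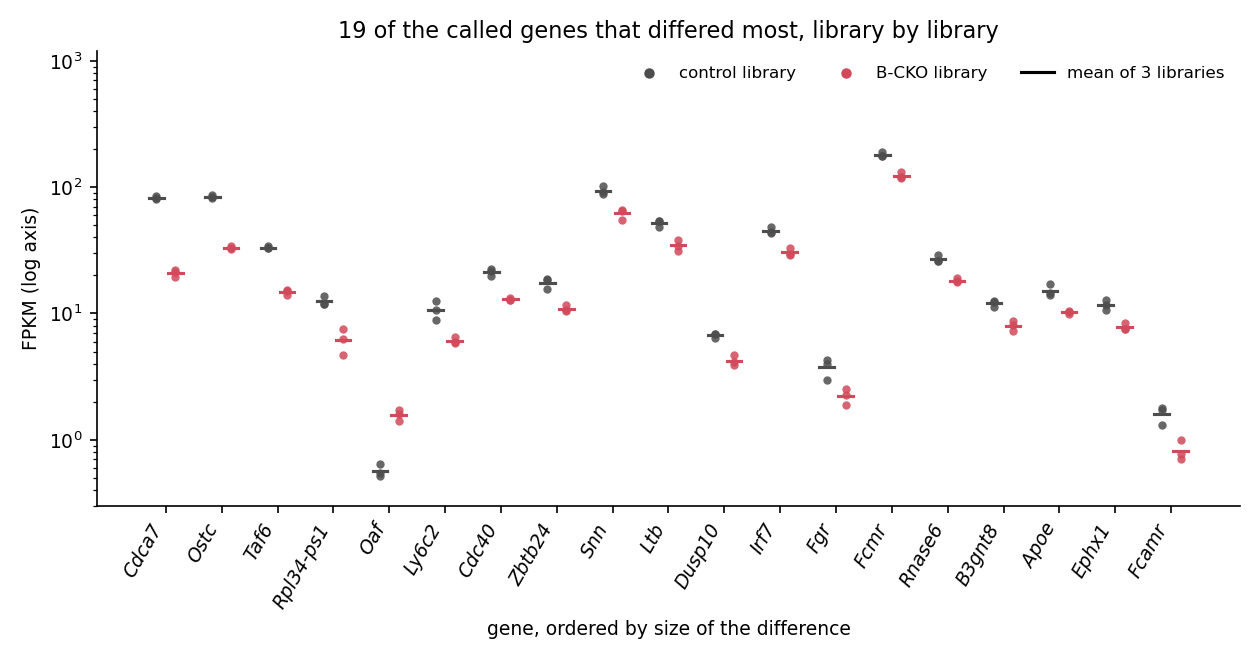
FPKM (log axis) of 19 called genes with the largest differences in each of the 3 control and 3 B-CKO libraries; horizontal bars are means of 3 libraries. In all 19 the groups do not overlap, and Oaf is the only gene of the 19 that is higher in B-CKO cells.

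Among the other genes of the methylation and ICF list (10 members, with 2 called higher and 2 lower, beside 0.947% and 3.05% of all members, median 0.023), the paralog and the partner of Cdca7 were higher. Cdca7l, the paralog of Cdca7, was at 19.1, 21.3 and 21.3 FPKM in the 3 control libraries and 26.1, 26.1 and 27 FPKM in the 3 B-CKO libraries. Every B-CKO library was above every control, a difference of 0.35 ± 0.048 (adjusted p = 0.00772). Hells, the ATPase that works with CDCA7, was at 53.6, 56.2 and 57.2 FPKM in the 3 control libraries and 60.5, 65.5 and 65.7 FPKM in the 3 B-CKO libraries, a rise of 0.19 ± 0.043 (adjusted p = 0.0383; up to 0.145 with a library left out). The other members did not pass: the maintenance methyltransferase gene Dnmt1 at 0.12 ± 0.047, its partner Uhrf1 at 0.14 ± 0.052, the de novo methyltransferase genes Dnmt3b at 0.088 ± 0.064 and Dnmt3a at -0.13 ± 0.05, and the demethylating dioxygenase genes Tet2 and Tet3 at -0.043 ± 0.069 and -0.070 ± 0.061.

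Ostc, Taf6 and Cdc40 were the only members of their complexes called lower. Of 12 members of the oligosaccharyltransferase list Ostc was the only one called, and the next by p were Ost4 at 0.13, Tmem258 at 0.097 and Rpn1 at 0.067, with adjusted p of 0.179, 0.240 and 0.240. Of 16 TFIID subunits Taf6 was lower (6.25%, beside 3.05% of all members). Taf12 (0.17 ± 0.039, adjusted p = 0.0413) and Taf11 (0.15 ± 0.035, adjusted p = 0.0458) were higher (12.5%, beside 0.947% of all members). Neither rise passed without control library 1 or 3 or without any of the B-CKO libraries. Of 6 second-step splicing factors Cdc40 was the only one called, with Dhx15 at 0.056, Dhx38 at 0.032 and Dhx8 at -0.034. Of 35 other ZBTB genes 2 were called lower (5.71%, beside 3.05% of all members), namely Zbtb7b (-0.22 ± 0.044) and Bcl6 (-0.30 ± 0.066), with adjusted p up to 0.110 and 0.149 when a library was left out, and the list's median was -0.030.

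Other genes among the 20 largest differences were lower, apart from Oaf. Oaf, a gene for a secreted protein, was at 0.52, 0.55 and 0.64 FPKM in the 3 control libraries and 1.71, 1.4 and 1.61 FPKM in the 3 B-CKO libraries, with a difference of 0.71 ± 0.085 (adjusted p = 0.00539). It is a member through its B-CKO level, since its control mean lies under 1 FPKM. Fcmr, the receptor for secreted IgM, was at 188, 176 and 175 FPKM in the 3 control libraries and 132, 120.0 and 117 FPKM in the 3 B-CKO libraries, at a difference of -0.55 ± 0.048 (adjusted p = 7.12e-04). Fcamr, a receptor for IgA and IgM, was low in both groups (1.61 ± 0.26 FPKM in controls against 0.82 ± 0.15 FPKM in B-CKO cells), at a difference of -0.52 ± 0.1, and is a member only through its control level. Irf7, the transcription factor that amplifies interferon responses, was at 48.6, 43.1 and 43.9 FPKM in the 3 control libraries and 29.6, 28.9 and 32.9 FPKM in the 3 B-CKO libraries. All 3 B-CKO values lay under the lowest control, a difference of -0.55 ± 0.058 (adjusted p = 0.00271). Ltb, which encodes lymphotoxin beta, was at 53.8, 53.7 and 48.8 FPKM in the 3 control libraries and 38.4, 34.3 and 31 FPKM in the 3 B-CKO libraries, at a difference of -0.58 ± 0.07 (adjusted p = 0.00539). Ly6c2 (-0.71), Snn (-0.59), the MAP kinase phosphatase gene Dusp10 (-0.56), the Src family kinase gene Fgr (-0.55), the ribonuclease gene Rnase6 (-0.53), the glycosyltransferase gene B3gnt8 (-0.53), Apoe (-0.52), which encodes apolipoprotein E, and the epoxide hydrolase gene Ephx1 (-0.52) were lower too. Rpl34-ps1 (-0.93) is a pseudogene whose reads may be shared with Rpl34, so its value is uncertain. With any 1 library left out all of these kept an adjusted p under 0.05, the highest being 0.0366 for Ly6c2, except Fgr (up to 0.120) and Fcamr (up to 0.110).

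Another 7 members differed by 0.5 or more without being called. Tmem254b (1.28 ± 0.89) and Tmem254c (-1.15 ± 0.9), neighbouring near-identical copies, went from 0 to 22.3 FPKM and from 0.01 to 17.4 FPKM among the control libraries. Rps27rt (2.55 ± 0.81), a retrogene copy of Rps27, was listed at 0 in all control libraries and in B-CKO library 1 and at 13.1 and 13.2 FPKM in the other B-CKO libraries. Reads split between copies make these values uncertain. Gm14305 (-0.92), Moap1 (0.62) and the histone genes H3c11 (0.74) and H4c3 (0.58) had adjusted p of 0.0672, 0.0559, 0.0696 and 0.0929. All 7 were named after their values were seen.

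Of the 42 gene lists examined, the MHC class II pathway, which presents antigen to CD4+ T cells, had the largest share of members called. Of 13 members 11 were called lower and none higher, with a median of -0.31, beside 3.05% called lower and a median of -0.0063 over all members. Ciita, the transactivator that switches on the class II genes, was at 27.8, 24.1 and 27.3 FPKM in the 3 control libraries and 21.5, 20 and 21.1 FPKM in the 3 B-CKO libraries. The groups did not overlap, with a difference of -0.32 ± 0.056 (adjusted p = 0.0174). The classical chain genes H2-Aa (819.9 ± 82.9 FPKM in controls against 659 ± 14.9 FPKM in B-CKO cells), H2-Ab1 (965 ± 95.7 FPKM in controls against 773 ± 33.9 FPKM in B-CKO cells) and H2-Eb1 (463 ± 36.4 FPKM in controls against 372 ± 17.3 FPKM in B-CKO cells) were lower, at -0.31, -0.32 and -0.31. The invariant chain gene Cd74, among the most abundant of all members, was at 3148, 2774 and 2913 FPKM in the 3 control libraries and 2432, 2362 and 2498 FPKM in the 3 B-CKO libraries, at a difference of -0.28 ± 0.049 (adjusted p = 0.0193). The peptide-loading chain genes H2-DMa (-0.30), H2-DMb1 (-0.27) and H2-DMb2 (-0.32), their modulators H2-Oa (-0.32) and H2-Ob (-0.35), and H2-Eb2 (-0.30) were called at nearly the same size. The processing enzyme genes Ctss (-0.12 ± 0.043) and Ifi30 (-0.041 ± 0.032), which many cells express without class II, did not pass.

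As a percentage of the control mean, the 33 B-CKO values of the 11 called class II genes ran from 71.9 to 86.8% and the 33 control values from 90.1 to 113%. Control library 1 was the highest control for all 11 of these genes. Without it 0 of the 11 passed, without B-CKO library 2 also 0, without control library 3 only 1, and without B-CKO library 3 there were 5. The list's median ran from -0.37 to -0.24 over these fits. At 0 h the median over the same 13 genes was 0.0024 and at 48 h 0.0062, from libraries of the same mice. The change between time points passed the test for none of the 13. For Ciita the difference at 24 h less that at 48 h was -0.29 (limma, unadjusted p = 0.00484, adjusted p = 0.372).

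The class II genes share a promoter element, the Y box, a CCAAT box in reverse that is bound by NF-Y and read together with the X box by the complex that recruits CIITA. Shown are the 110 bases before the start of 4 genes (RefSeq, GRCm38.p6, in the direction of the gene), with GATTGG or its reverse complement in capitals. The windows are chr17:34287824-34287933, minus strand, for H2-Aa, chr17:34305757-34305866, plus strand, for H2-Eb1, chr17:34238795-34238904, plus strand, for H2-Ob, and chr17:34153081-34153190, plus strand, for H2-DMb1.
H2-Aa: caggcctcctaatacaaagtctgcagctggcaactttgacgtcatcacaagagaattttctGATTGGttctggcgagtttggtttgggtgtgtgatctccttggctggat
H2-Eb1: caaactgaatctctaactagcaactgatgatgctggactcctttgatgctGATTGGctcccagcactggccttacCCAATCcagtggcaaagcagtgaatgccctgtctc
H2-Ob: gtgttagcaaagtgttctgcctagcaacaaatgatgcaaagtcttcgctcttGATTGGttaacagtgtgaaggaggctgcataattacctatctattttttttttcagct
H2-DMb1: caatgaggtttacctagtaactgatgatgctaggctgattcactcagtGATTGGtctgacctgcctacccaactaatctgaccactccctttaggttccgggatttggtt

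In these 4 the forward match starts 49, 60, 58 and 62 bases before the start. In H2-Oa, H2-DMb2, H2-Eb2 and H2-DMa it starts 44, 91, 101 and 199 bases before. GATTGG (both strands, 300-base windows) was present in all 8 called class II genes with a promoter entry. It was present in 2000 of 7928 members (25.2%) and in 49 of 233 genes called lower (21%). Since the Y box is a known element of class II promoters, its presence there says nothing of the calls. Ctss and Ifi30, the uncalled members, did not hold it in their windows.

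**Figure D3:**
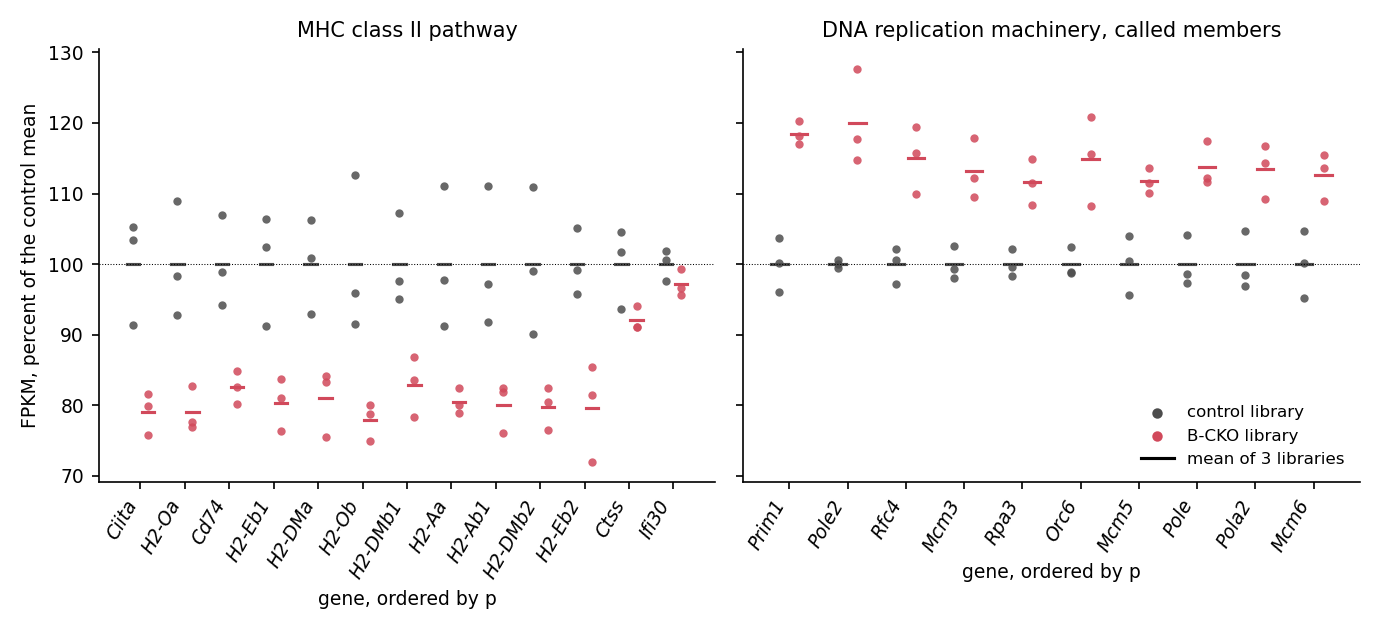
FPKM as a percentage of the control mean in each control and B-CKO library, for the 13 members of the MHC class II pathway (left) and the 10 called members of the DNA replication list (right); bars are means of 3 libraries. The called class II genes lie at 71.9 to 86.8% in B-CKO libraries and the called replication genes at 108 to 128%.

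Several receptors and phosphatases that restrain B cell activation were lower. The list of 13 members held inhibitory receptors, relatives of these and phosphatases. Of the 13, 7 were called lower (53.8%, beside 3.05% of all members) and none higher. The median was -0.18, and 10 of 13 had all B-CKO libraries below, against 15.9% of all members. Fcrla, an Fc receptor-like gene counted here as a relative, was at 99, 82.3 and 89.2 FPKM in the 3 control libraries and 68.1, 66.2 and 60.6 FPKM in the 3 B-CKO libraries, at a difference of -0.46 ± 0.065 (adjusted p = 0.00882). The sialic acid receptor genes Cd22 (-0.29 ± 0.049) and Siglecg (-0.23 ± 0.038), the phosphatase genes Ptpn6 (-0.24 ± 0.043), which encodes SHP-1, and Inpp5d (-0.17 ± 0.039), which encodes SHIP1, Pirb (-0.40 ± 0.085) and Btla (-0.18 ± 0.041) were lower as well. With control library 1 or B-CKO library 2 left out only 1 member passed, without control library 3 there were 2 and without B-CKO library 3 there were 3. The median ran from -0.21 to -0.16.

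B cell receptor signalling genes held fewer calls. Of 27 members 5 were called lower (18.5%, beside 3.05% of all members) and none higher (median -0.090), and 26 of the 27 differences were below 0. Among these were Nfatc1 (-0.22 ± 0.036), the receptor chain gene Cd79a (-0.15 ± 0.034), the exchange factor gene Vav2 (-0.20 ± 0.046) and the Src family kinase gene Fyn (-0.19 ± 0.044). Cd79a stood at 746, 713 and 721 FPKM in the 3 control libraries and 669.8, 642 and 648 FPKM in the 3 B-CKO libraries. The gap between its lowest control and its highest B-CKO library was small, and the adjusted p of 0.0394 rose to 0.147 with a library left out. Without control library 1, control library 3 or B-CKO library 2, only 1 member of the list passed, and 2 without B-CKO library 1 or 3.

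Transcription factors of B cell identity had 5 of 18 members called lower (27.8%, beside 3.05% of all members). All 18 differences were below 0, with a median of -0.079. Klf2, which keeps lymphocytes quiescent and sets their trafficking, was at 77.5, 67.9 and 71.6 FPKM in the 3 control libraries and 58.9, 51 and 51.2 FPKM in the 3 B-CKO libraries, at a difference of -0.42 ± 0.063 (adjusted p = 0.0128). Ets1 (-0.21 ± 0.037), Irf8 (-0.24 ± 0.043), Spib (-0.20 ± 0.037) and Bcl6 (-0.30 ± 0.066), the germinal centre repressor, were also called. Without control library 1 or B-CKO library 2 none of the 5 passed, without control library 3 only 1 and without B-CKO library 3 only 2. The plasma cell programme, with 11 members, had no call and no gene without overlap. Its median was -0.12, with Jchain at -0.32 ± 0.14, Il5ra at -0.32 ± 0.1, Xbp1 at -0.13 ± 0.06 and Mzb1 at 0.096 ± 0.048.

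Immediate early genes, induced within minutes of a stimulus, were lower in 6 of 19 members (31.6%, beside 3.05% of all members) and higher in none (median -0.22). Dusp2, a nuclear MAP kinase phosphatase, was at 48.2, 47.4 and 49.2 FPKM in the 3 control libraries and 40.1, 40.7 and 39.3 FPKM in the 3 B-CKO libraries, with a difference of -0.26 ± 0.034 (adjusted p = 0.00591). Its replicates were tight and the call held with any library left out (adjusted p up to 0.0319). Ier5 (-0.31 ± 0.048), the mRNA decay genes Zfp36 (-0.28 ± 0.05) and Zfp36l1 (-0.26 ± 0.048) and the antiproliferative genes Btg1 (-0.24 ± 0.056) and Btg2 (-0.27 ± 0.063) made up the rest. Dusp2 was the only call of the list without control library 1 or B-CKO library 2, with 3 calls without B-CKO library 3 and 9 without B-CKO library 1. The list's median was 0.0014 at 0 h and -0.062 at 48 h.

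Type I interferon-stimulated genes were lower at 24 h in 5 of 30 members (16.7%, beside 3.05% of all members) and higher in none (median -0.12). Ifit3 was at 15.5, 15.2 and 13.9 FPKM in the 3 control libraries and 8.7, 11.9 and 10.7 FPKM in the 3 B-CKO libraries, at a difference of -0.48 ± 0.091 (adjusted p = 0.0223). Oasl2 (-0.33 ± 0.055), Mx1 (-0.31 ± 0.059) and Rtp4 (-0.29 ± 0.059), all induced by interferon, were called together with Ifit3 and Irf7. At 0 h the list's median was 0.20, with all 30 members above 0, and at 48 h 0.035. No member passed at either time. For Irf7 the differences at 0, 24 and 48 h were 0.30, -0.55 and -0.17, and the test of a change between 24 and 0 h (limma) gave an unadjusted p of 0.00171 (adjusted p = 1.00). Calls in the list fell to 1 without control library 1, to 2 without control library 3 and to 3 without B-CKO library 2.

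Guanylate-binding proteins, GTPases induced mainly by interferon gamma, had 2 of 12 members called higher (16.7%, beside 0.947% of all members) and none lower. These were Gbp2, at 39.6, 45.4 and 35.5 FPKM in the 3 control libraries and 50.2, 59.2 and 51.6 FPKM in the 3 B-CKO libraries, with a difference of 0.41 ± 0.084 (adjusted p = 0.0312), and Gbp3 (0.22 ± 0.051, adjusted p = 0.0443). Neither passed without control library 1 or 3 or without B-CKO library 2 or 3. At 0 and 48 h the difference in Gbp2 was 0.44 and 0.64. Gbp9 (-0.16 ± 0.045) and Gbp4 (-0.13 ± 0.051) had all B-CKO libraries below the controls without being called. MHC class I genes were mostly below 0 (16 of 18, median -0.11), with 1 called lower (5.56%, beside 3.05% of all members). This was H2-Q7 (-0.49 ± 0.098, adjusted p = 0.0289), a class Ib gene with close paralogs whose reads may be shared. The classical gene H2-D1 (-0.13 ± 0.032), Tapbp (-0.13 ± 0.031) and the peptide transporter gene Tap1 (-0.15 ± 0.038) had adjusted p of 0.0523, 0.0509 and 0.0523.

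Homing and egress receptors were lower in 4 of 21 members (19%, beside 3.05% of all members) and higher in 1 (median -0.16). S1pr1, the receptor that lets lymphocytes leave tissues, was at 8.57, 8.59 and 9.6 FPKM in the 3 control libraries and 7, 6.13 and 6.84 FPKM in the 3 B-CKO libraries, at a difference of -0.37 ± 0.063 (adjusted p = 0.0159). The integrin genes Itgb7 (-0.38 ± 0.067) and Itga4 (-0.21 ± 0.045), which form the gut-homing pair, and the chemokine receptor gene Ccr6 (-0.37 ± 0.068) were lower too, while Slamf6 (0.26 ± 0.042), a homophilic adhesion receptor, was higher. Without control library 1 or B-CKO library 2 none of the 5 passed, without control library 3 only 1 and without B-CKO library 3 only 3. Cytokines and their receptors had 5 of 25 called lower (20%) and none higher (median -0.084): Ltb, the IL-4 receptor gene Il4ra (-0.39 ± 0.048), the IL-21 receptor gene Il21r (-0.35 ± 0.038), Il10ra (-0.29 ± 0.046) and Tgfb1 (-0.14 ± 0.033). Il21r stood at 111, 104 and 111 FPKM in the 3 control libraries and 85.5, 82.6 and 87.3 FPKM in the 3 B-CKO libraries, without overlap (adjusted p = 0.00285). Calls fell to 3 without control library 1 or B-CKO library 2. Of 17 costimulatory molecules 1 was called (5.88%), Icosl (-0.41 ± 0.064, adjusted p = 0.0150), the ligand of ICOS on T cells. Cd69 was at 0.19 ± 0.057 without a call. GIMAP family GTPases had 1 of 8 called lower (12.5%), Gimap8 (-0.21 ± 0.045, up to 0.115 in adjusted p with a library left out).

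The LPS receptor and NF-kappaB list carried fewer calls. Of 29 members 3 were called lower (10.3%, beside 3.05% of all members) and none higher (median -0.060). These were Relb (-0.20 ± 0.045), a subunit of the alternative NF-kappaB dimer, Nfkbie (-0.22 ± 0.05), an inhibitor, and Ly86 (-0.16 ± 0.037), the MD-1 chain of the RP105 complex. None of the 3 passed without control library 1 or 3 or without B-CKO library 2 or 3. Ly96, which encodes the MD-2 chain that binds LPS, was at 4.83, 5.2 and 4.35 FPKM in the 3 control libraries and 3.46, 3.84 and 3.9 FPKM in the 3 B-CKO libraries, a difference of -0.29 ± 0.07 that missed the threshold (adjusted p = 0.0511).

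A further 6 lists held 1 to 3 genes called lower each. Mcl1, an antiapoptotic BCL2 relative needed by B cells, was at 194, 191 and 191 FPKM in the 3 control libraries and 166, 158 and 159.9 FPKM in the 3 B-CKO libraries, at a difference of -0.25 ± 0.032 (adjusted p = 0.00591, at most 0.0367 with a library left out). The proapoptotic genes Bbc3 (-0.30 ± 0.048), which encodes PUMA, and Bmf (-0.45 ± 0.1) were also lower, so that 3 of 14 BCL2 family members were called (21.4%, median -0.042). Ddit4, an inhibitor of mTORC1, was at 11.2, 12.9 and 14.8 FPKM in the 3 control libraries and 8.88, 8.97 and 9.04 FPKM in the 3 B-CKO libraries. Its B-CKO libraries were within 8.88 to 9.04 FPKM, all below the controls, and the difference of -0.48 ± 0.079 (adjusted p = 0.0159, up to 0.0621 with a library left out) was the only call of 25 PI3K and mTORC1 genes (median -0.068). Mxd4 (-0.40 ± 0.085), an antagonist of MYC, was the only call of 10 MYC network genes, and Phf1 (-0.42 ± 0.072) the only one of 11 PRC2 genes. Ucp2 (-0.18 ± 0.031), a mitochondrial carrier, and Txnip (-0.23 ± 0.048), an inhibitor of thioredoxin and glucose uptake, were lower among 25 redox and amino acid transport genes, and the lysosomal genes Ctsh (-0.29 ± 0.048) and Laptm5 (-0.28 ± 0.065) among 28 lysosomal genes. In the 5 lists other than the BCL2 family the share called lower was 4%, 10%, 9.09%, 8% and 7.14% in the order given, beside 3.05% of all members. Apart from Mcl1, none of these called genes passed without B-CKO library 2. Cdkn1a, which encodes p21, was at -0.37 ± 0.092 with an adjusted p of 0.0524.

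Genes called higher were most numerous in the DNA replication machinery, which copies the genome in S phase. Of 37 members 10 were called higher and none lower, with a median of 0.16, beside 0.947% called higher over all members. In 28 of the 37 all B-CKO libraries were above all controls, against 11.8% of members, and 35 differences were above 0. Prim1, the catalytic subunit of primase, was at 51.2, 53.4 and 55.3 FPKM in the 3 control libraries and 62.9, 62.3 and 64.1 FPKM in the 3 B-CKO libraries, higher by 0.24 ± 0.037 (adjusted p = 0.0142, up to 0.0626 with a library left out). Pole2, a subunit of polymerase epsilon, was at 18.1, 18.2 and 18.3 FPKM in the 3 control libraries and 20.9, 21.4 and 23.2 FPKM in the 3 B-CKO libraries. The control libraries were close together, and the difference was 0.25 ± 0.045 (adjusted p = 0.0198). The others were the helicase genes Mcm3 (0.18 ± 0.037), Mcm5 (0.16 ± 0.037) and Mcm6 (0.17 ± 0.041), the clamp loader gene Rfc4 (0.20 ± 0.04), the single-strand binding gene Rpa3 (0.16 ± 0.035), the origin recognition gene Orc6 (0.19 ± 0.044) and the polymerase genes Pole (0.18 ± 0.041) and Pola2 (0.18 ± 0.041). Called replication genes stood at 108 to 128% of the control mean in the B-CKO libraries and at 95.1 to 105% in the controls.

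These rises were within the reach of single libraries. Without control library 1 or B-CKO library 2 none of the 10 passed, without control library 3 or B-CKO library 3 only 1, and without control library 2 there were 5. The median ran from 0.12 to 0.19. At 0 h the median over the 37 genes was 0.050 and at 48 h -0.025, with 24 and 13 of them above 0. Mitosis and kinetochore genes had a median of 0.11 with 28 of 31 above 0, but none was called. The nearest was Spc25 (0.16 ± 0.043, adjusted p = 0.0627). Of 25 G1 cyclins, CDKs and inhibitors only Ccnd2, cyclin D2, was called. It was at 191, 188 and 191 FPKM in the 3 control libraries and 219, 214 and 215 FPKM in the 3 B-CKO libraries, a rise of 0.18 ± 0.03 (adjusted p = 0.0159), with the 3 libraries of each group close together (adjusted p up to 0.0709 with a library left out). Cdk4 (0.11 ± 0.032) and Tfdp1 (0.14 ± 0.038) did not pass.

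Lists of growth and supply genes had few calls, and those in the following lists were all higher. Nucleotide and one-carbon synthesis had 2 of 31 called higher (6.45%, beside 0.947% of all members; median 0.085), among them Umps (0.22 ± 0.037), the enzyme that makes UMP. Mitochondrial ribosomal proteins had 4 of 78 called higher (5.13%) and none lower (median 0.072, 69 above 0): Mrps31 (0.27 ± 0.044), Mrpl12 (0.19 ± 0.031), Mrps22 (0.18 ± 0.043) and Mrpl49 (0.15 ± 0.034). Mrpl12 stood at 184, 188 and 184 FPKM in the 3 control libraries and 210.5, 209.5 and 217 FPKM in the 3 B-CKO libraries. The groups were clearly apart although the difference was under 0.2. Ribosome biogenesis had 2 of 35 called (5.71%, median 0.090), the snoRNP protein gene Nop56 (0.18 ± 0.035) and Nolc1 (0.16 ± 0.034), translation factors 1 of 52, Eif2b3 (0.21 ± 0.042, median 0.050), and cytosolic ribosomal proteins 1 of 78, Rpl31 (0.22 ± 0.038, median 0.038). The shares of the last 2 lists, 1.92% and 1.28%, are near that of all members. None of these calls held without control library 1 or B-CKO library 2.

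In 5 more lists most members lay above 0 and no gene passed. All 31 proteasome subunits were above 0 (median 0.079), as were 19 of 20 cytosolic chaperones (median 0.098), 19 of 20 aminoacyl-tRNA synthetases (median 0.065), 64 of 77 respiratory chain subunits (median 0.060) and 20 of 25 cholesterol synthesis genes (median 0.071). The counts without overlap, all B-CKO libraries above, were 14, 14, 8, 16 and 10, beside 11.8% of all members. Genes of these lists are abundant, and abundant members as a whole lay above 0 (median 0.028 in the group of highest level), a relation whose part in the shifts was not tested. Rescaling to TPM moved the median of all members to -0.019 and median-ratio scaling to 0.0046. The medians of these 5 lists kept their sign under both.

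**Figure D4:**
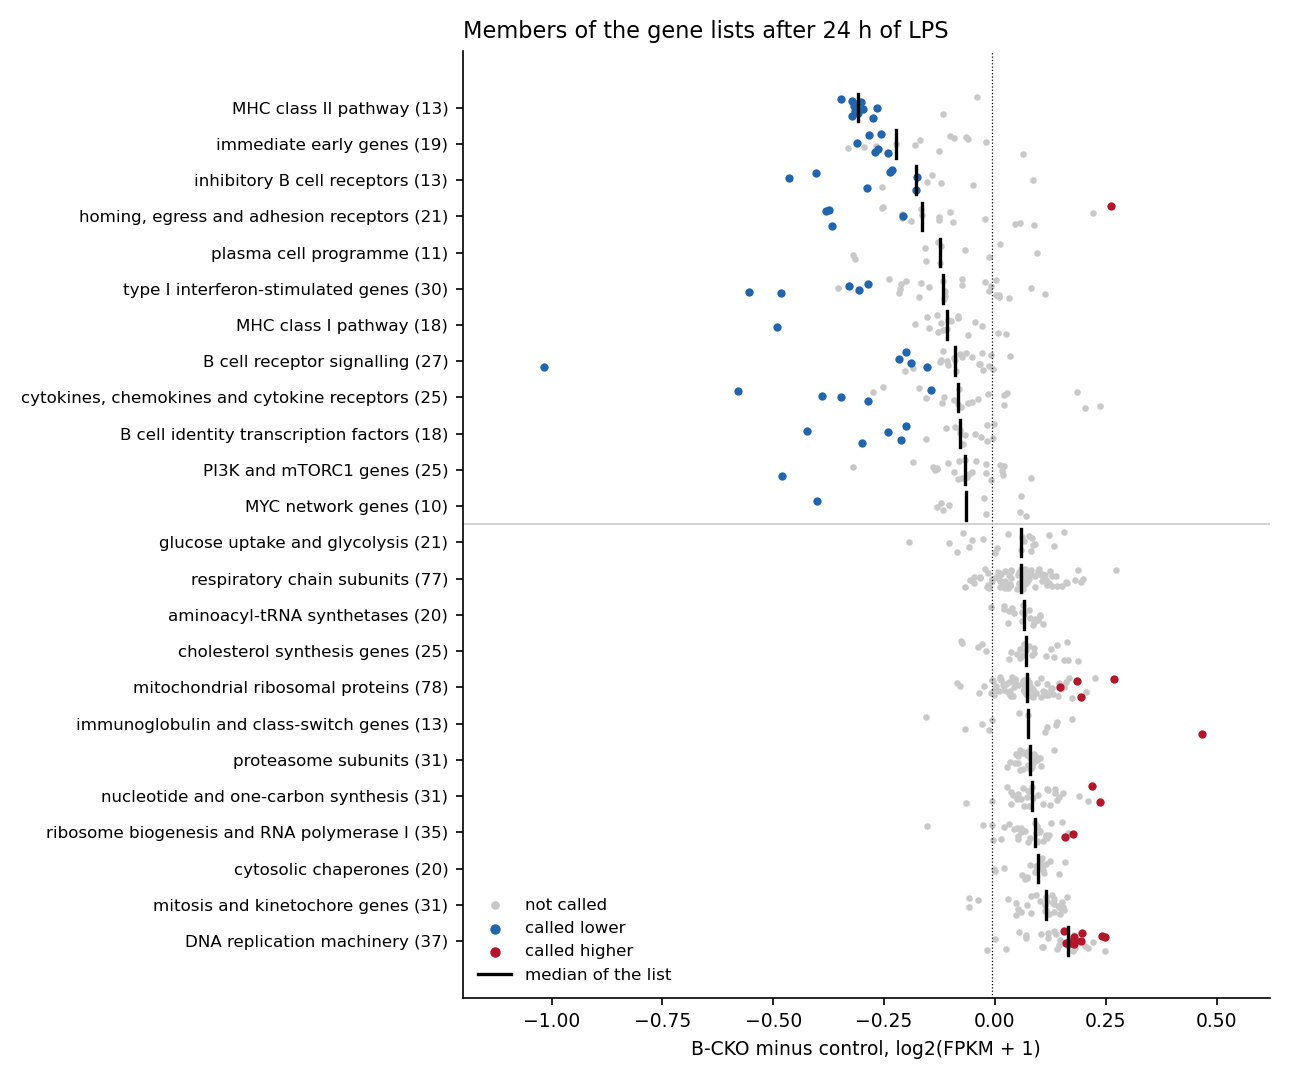
Difference between B-CKO and control cells (log2(FPKM + 1)) of every member of 24 gene lists, those of 10 or more members with the 12 lowest and the 12 highest medians; member counts are in brackets, the black bar is the list's median and the dotted line the median of all members. The MHC class II pathway has the lowest median (-0.31) and the DNA replication machinery the highest (0.16).

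Heme synthesis and breakdown had no call among 16 members. The median was 0.0076, with -0.0038 after rescaling to TPM, and the members nearest to the threshold were Hmox1 (-0.35 ± 0.089, adjusted p = 0.0561), the heme oxygenase that degrades heme, Blvrb (-0.22 ± 0.072), Ppox (-0.14 ± 0.051) and Blvra (0.12 ± 0.049). The 95% interval of Hmox1 ran from -0.55 to -0.15. ER folding and unfolded protein response genes (26 members, median 0.0099, -0.0025 in TPM) and glycolysis genes (21 members, median 0.058) had no call either, with Herpud1 at -0.14 ± 0.036 and Hk2 at 0.13 ± 0.053.

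Immunoglobulin and class-switch genes (13 members) had a median of 0.075. Ung (0.17 ± 0.045), the uracil glycosylase of class switching, Msh6 (0.14 ± 0.038) and Rif1 (0.14 ± 0.041) were above the controls in all libraries without being called. After Oaf, the largest rise among called genes was that of Pim2, a survival kinase gene induced by cytokines and NF-kappaB, named after its values were seen. It stood at 87.8, 105 and 99.6 FPKM in the 3 control libraries and 143, 155 and 121 FPKM in the 3 B-CKO libraries, a difference of 0.51 ± 0.086 (adjusted p = 0.0163).

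The smallest of the well-measured shifts show what the replicates could resolve. By p, the first 5 called genes under 0.25 in size were, among the higher ones, Prim1, Mrpl12, Ccnd2, Bola3 (0.21 ± 0.034), which serves iron-sulfur cluster assembly, and Rpl31, and among the lower ones Mcl1, Cyb561a3 (-0.21 ± 0.032), Myo1e (-0.24 ± 0.037), the GTPase gene Rac2 (-0.19 ± 0.032) and Siglecg. Rac2 was at 247, 241 and 252 FPKM in the 3 control libraries and 219, 214 and 214 FPKM in the 3 B-CKO libraries. Cyb561a3 was at 76.3, 76.5 and 77.2 FPKM in the 3 control libraries and 67.8, 65.3 and 65.7 FPKM in the 3 B-CKO libraries. Within each group these values lie within a few percent of each other and the groups do not overlap. Mcl1 kept its call with any library left out. The other 9 had adjusted p between 0.0621 and 0.0742 without their least favourable library, and none of these 9 passed in the fit of all genes above 0.

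Set beside the other time points, the strongest differences were these. Cdca7 differed by -1.88, -1.94 and -2.02 at 0, 24 and 48 h, Ostc by -0.83, -1.31 and -1.26, Taf6 by -0.68, -1.12 and -1.05, and Cdc40 by -0.70, -0.67 and -0.63. Among the same 9711 genes 2 were called at 0 h (0.0206%, Cdca7 and Zbtb24) and 32 at 48 h (0.330%), of which 10 were higher and 22 lower. At an unadjusted p under 0.05 stood 84 genes at 0 h (0.865%) and 824 at 48 h (8.49%). The 296 genes called lower at 24 h had a median of -0.054 at 0 h and -0.11 at 48 h, and the 92 called higher had medians of 0.074 and 0.034. At 48 h 15 of the 296 and 3 of the 92 were called in the same direction. The mice were the same at each time, so these values are not independent of those at 24 h.

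The change of the genotype difference itself was tested on the difference between time points within each mouse. Between 24 and 48 h it passed for 2 genes (0.0206%, limma, adjusted p under 0.05, with 898 genes, or 9.25%, at an unadjusted p under 0.05). Between 24 and 0 h 0 genes passed (0.00%, with 139, or 1.43%, at an unadjusted p under 0.05, and 13 with a replicate block). The shifts described here are therefore those measured at 24 h, and for genes other than these 2 no difference from the other times was shown. The 2 were Ddit4 and Moap1, and Moap1 is a member only through its B-CKO level at 24 h, since its control mean was 0.79 FPKM. Ddit4, called at 24 h, differed by 0.14 at 48 h (limma, adjusted p = 0.761), when its level was far higher in both groups, at 85.4 FPKM in controls and 93.7 FPKM in B-CKO cells as means of 3 libraries.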

How the data were processed

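Splenic B cells from 3 control and 3 B-CKO mice were cultured with LPS, and RNA-seq libraries were made from each mouse at 0, 24 and 48 h. According to the study's methods and the submitters' processing notes, the authors aligned reads to the mouse genome (mm10) with Bowtie2 (BWA is also named), took abundances from Cufflinks and RSEM, and deposited them as FPKM with 2 decimals for each library. Tool versions and the annotation were not given in the sources used here, and the labels and the methods name different sequencers. FPKM carry no counts, so the number of fragments behind a value is unknown, and the authors' count-based test (DESeq2) could not be repeated on these values.

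Of 16545 gene identifiers 16512 were matched to RefSeq (GRCm38.p6), which gave symbols, positions and promoters. The filter kept genes that averaged 1 FPKM or more over the 6 libraries of 24 h (9711, 9 of them unmatched), values were transformed as log2(FPKM + 1), so that differences of genes of low level are understated, and genotypes were compared with limma 3.58.1 in R 4.3.3 with a variance trend, adjusting p by Benjamini-Hochberg over all genes fitted. A gene was called at an adjusted p under 0.05. Changes between time points were tested in the same way on each mouse's difference between time points. The same steps were tested on simulated data, in which 43 of 786 calls were false. Genes were drawn independently of each other there, with 200 changed per run. Variation that many genes of a library share was not simulated, so these rates may not hold for the real libraries. Each library is 1 mouse, and groups of 3 are too small for a test by permutation to reach this threshold.

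Named genes were Zbtb24 and the methylation list, the 20 called genes with the largest differences and no overlap between groups, the 5 called genes of each direction with the smallest p among differences under 0.25, and up to 4 members of each of 42 lists with the smallest p. Some genes that these rules name are not reported here. Further called members of the larger lists and genes with promoter matches were named after their values were seen. The members and lists were chosen with earlier results of these data known, so no list was tested, and the larger counts of called members are given beside the share over all members. Alternatives were another pseudocount, other filters, TPM, median-ratio scaling, a replicate block, a fit of all 18 libraries and leaving out each library. Tables and figures were made in Python (3.11.15), using pandas 2.3.3, numpy 2.4.6 and matplotlib (3.10.9).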

Additional observations from a re-analysis of the deposited data

Results flagged for a closer look

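In 2 genes the genotype difference itself changed between 24 and 48 h (limma on the difference within each mouse, Benjamini-Hochberg over 9711 genes). For Ddit4, which encodes an inhibitor of mTORC1, the difference at 24 h less that at 48 h was -0.621 (adjusted p = 0.0122). At 24 h its level was 11.25, 12.86 and 14.84 FPKM in controls and 8.88, 8.97 and 9.04 FPKM in B-CKO cells, and at 48 h it was 72.0, 92.1 and 92.1 FPKM against 90.0, 90.9 and 100.1 FPKM, where the groups overlapped. For Moap1, which encodes a modulator of apoptosis that binds BAX, the same change was 1.68 (adjusted p = 0.0122). Moap1 stood near the limit of 1 FPKM, which it passed through its B-CKO libraries at 24 h, at 0.8, 1.15 and 0.42 FPKM in controls against 1.31, 1.72 and 2.15 FPKM in B-CKO cells at 24 h, and at 2.28, 1.45 and 2.18 FPKM against 0, 0.77 and 0.57 FPKM at 48 h. Neither gene passed in the fit of all genes above 0.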

How the results depend on the processing

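The number of calls moved with the setting. Since the groups overlap in none of the 388 called genes, their directions could hardly turn and say nothing of stability. Of the 388, 384 were also called when the fit held the mouse number as a replicate block. With this block 704 genes were called, 208 higher and 496 lower, although same-numbered mice shared little beyond the number (correlations of their deviations from the group means of 0.0995, 0.224 and 0.0902, against a mean of -0.069 for other pairs). The pairing also moved the count of genes whose difference changed between 24 and 48 h from 2 to 29, and between 24 and 0 h from 0 to 13. In the fit of all genes above 0, 15 were called, 2 higher and 13 lower, and 0 changed between 24 and 48 h. In a single fit of all 18 libraries 11 were called, 1 higher and 10 lower. Zbtb24, at -0.6413 in both of these fits, missed the threshold there (limma, adjusted p = 0.0586 and 0.0994, within a range of 5.99e-04 to 0.0994 over its 13 settings).

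With each library left out in turn, 43 to 469 genes were called (fewest without control library 1, most without control library 2), 5 to 121 of them higher and 38 to 348 lower. The change between 24 and 48 h then passed for 0 to 5 genes, and the log2 fold change of Zbtb24 at 24 h ran from -0.717 to -0.5944. Of 93 called genes in the named set 67 missed the threshold without control library 1, 66 without B-CKO library 2, 46 without control library 3 and 38 without B-CKO library 3, against 82 in the fit of all genes above 0. The log2 fold change of Tet2 at 24 h, not called, turned positive without B-CKO library 1 (0.006836) and ran to -0.09432 without B-CKO library 2. Pseudocount, a minimum of 5 FPKM, TPM and median-ratio scaling gave 353 to 473 calls. The causes of these shifts were not tested. With 3 mice a group and no counts, differences under about 1.25-fold lie near the limit of what could be called.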
